A study of Mus musculus with 48 samples.

Results

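The comparison is between daughters exposed to lead and manganese together (Pb+Mn, 6 animals) and daughters exposed to lead alone (Pb, 6 animals), so 12 of the 48 hippocampal RNA libraries of the series enter it, all 12 chosen by the sex and treatment in their labels. All animals were CD-1 mice, an outbred stock, sampled at 2 months of age. Dams of both groups drank water with 100 ppm Pb, and those of the Pb+Mn group also received 2 g/L Mn in the same water. Drinking began 2 weeks before mating and ended when pups were weaned at postnatal day 21, a span of 8 weeks, so the daughters met the metals through the dam and had been off them since weaning. Lead was thus shared by both groups, and the difference between them is the manganese. The other daughters, 6 exposed to Mn alone and 6 controls, and the sons show whether a difference is found elsewhere. Their libraries also enter the model of all 48 libraries, so the filter, the scaling and the estimated spread of each gene rest on them too.

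Manganese is an essential metal that sits at the active site of enzymes such as the mitochondrial superoxide dismutase and glutamine synthetase, and it accumulates in the brain when its export fails. It crosses membranes through carriers it shares with iron, zinc and other divalent metals, and its export from cells depends largely on Slc30a10. Lead has no known physiological role. It competes with calcium and zinc in proteins, inhibits haem synthesis at Alad, and is known for effects on hippocampal glutamate receptors and learning.

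No gene differed between Pb+Mn and Pb daughters at an adjusted p under 0.05. Among the named genes of smallest p, levels were higher with manganese for Cd44, a cell surface receptor for hyaluronan, the transcription factor gene Npas3, the iron regulator Hfe and several interferon-inducible genes, and lower with manganese for the phosphatase subunit gene Ppp1cc, the inflammasome adaptor Pycard and the serotonin receptor Htr1f. The manganese carriers Slc30a10, Slc39a14, Slc39a8 and Slc11a2 differed between the groups by at most 0.19 on the log2 scale. The 21 tested genes of manganese and iron transport, Hfe among them, ran from -0.31 to 0.93. Library Pb 2 stood apart from the rest, and results are given with and without it.

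Total counts averaged 15.5 ± 2.9 M in Pb+Mn and 16.1 ± 3.19 M in Pb libraries (SD, n = 6 each; two-sided exact permutation test, p = 0.76, where 0.0022 was the smallest p the design allows). Library Pb 2 stood apart. Its trend with transcript length (log2 CPM, a count scaled to the size of its library, centred per gene and regressed on log2 length) had a slope of -0.313, against 0.016 to 0.068 in the 6 Pb+Mn libraries and -0.05 to 0.138 in the other 5 Pb libraries. Ribosomal protein genes took 2.19% of its counts and 0.595% to 0.978% of those of the other 11 libraries, and its median correlation with the libraries of its own group was 0.9462, against 0.9757 to 0.9833 in the others. Length trends averaged 0.041 ± 0.026 in Pb+Mn and -0.008 ± 0.164 in Pb daughters (SD, n = 6 each; exact permutation p = 0.65), and 0.053 ± 0.076 in Pb without Pb 2 (p = 0.73). A second library, labelled Pb 4, had sex-linked levels like neither the other females nor the males. It had 0.0684 CPM of Xist, the RNA that silences an X chromosome in females, while every other female library of the series had at least 18 CPM. Its Eif2s3x, an X-linked gene that escapes this silencing, stood at 35.2 CPM, against 44.4 to 62.4 CPM in the other females and a median of 39.4 CPM in males. Y-linked Ddx3y had 0 counts in it and did not exceed 0.0714 CPM in any of the 12 libraries, while males had at least 25 CPM. Results are therefore also given as the range over fits that each leave out 1 of the 12 libraries, Pb 2 and Pb 4 among them.

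**Figure D1:**
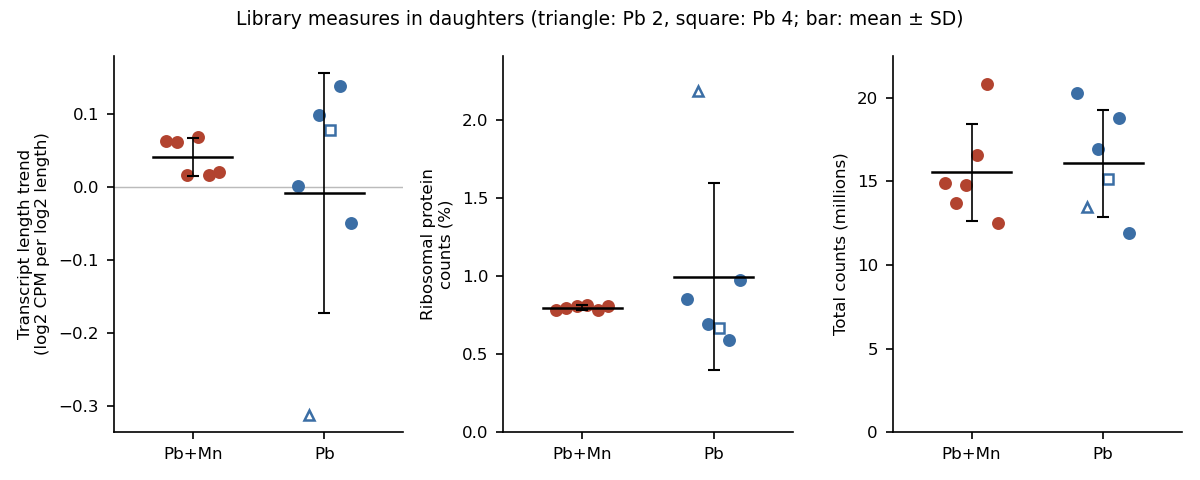
Transcript length trend (slope of log2 CPM on log2 length), share of counts in ribosomal protein genes (%) and total counts (M) of each library, Pb+Mn left of Pb, with the mean and SD as bars (n = 6 each). Pb 2, the triangle, has a length trend of -0.313 and a ribosomal share of 2.19%, both apart from the other 11 libraries, while Pb 4, the square, lies among them.

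The comparison asked which hippocampal genes differ when manganese is added to lead in daughters. Over 16360 genes tested with edgeR's quasi-likelihood test, 0 (0%) passed an adjusted p of 0.05, and the smallest adjusted p was 0.96. The unadjusted p was under 0.05 for 306 genes (1.87%) that were higher and 300 (1.83%) that were lower in Pb+Mn, together 606 (3.7%), where 818 is the number that a uniform spread of p-values would give. DESeq2 and limma voom also called 0 genes, with 690 and 481 at an unadjusted p under 0.05. These fits used all 48 libraries. Fitted to the 12 compared libraries alone, edgeR called 0 of 15028 genes, and the unadjusted counts were 327 higher and 163 lower. Without Pb 2, edgeR called 0 of 16474 genes with a smallest adjusted p of 0.38, and the unadjusted counts were 290 higher (1.76%) and 210 lower (1.27%). Of the genes under the unadjusted threshold, 245 were shared with and without Pb 2, which is 40.4% of the genes found with it and 49% of those found without it. Over all genes, log2 fold changes had a median of -0.004 and a median SE of 0.16. No named gene had an adjusted p below 0.96 in edgeR with all 12 libraries.

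The number of genes under the unadjusted threshold moved with single libraries, as the plot of counts by library left out shows. It lay between 400 without Pb+Mn 1 and 1107 without Pb 3, and was 916 without Pb 4 and 1020 without Pb 5. In the fits without Pb 3 and without Pb 5, the genes lower in Pb+Mn numbered 894 and 702, so the split between the directions moved as well. Every one of these fits called 0 genes after adjustment.

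**Figure D2:**
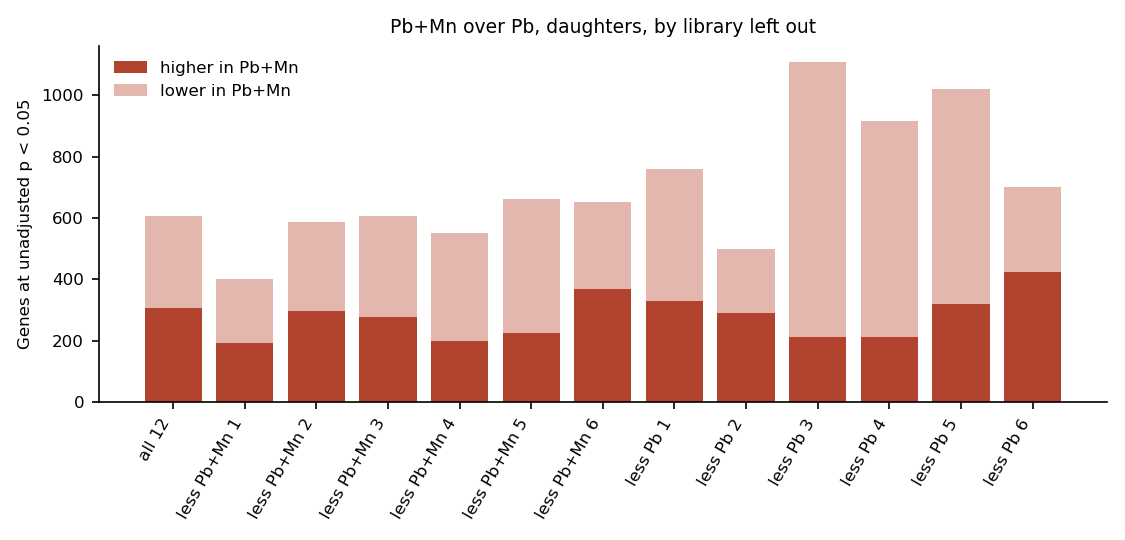
Number of genes at an unadjusted p under 0.05 (edgeR), stacked as higher (dark) and lower (light) in Pb+Mn than in Pb daughters, for all 12 libraries and with each library left out in turn. The count is 606 with all 12 libraries, 500 without Pb 2 and 1107 without Pb 3.

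Genes whose 6 Pb+Mn values all lay on one side of the 6 Pb values were few: 14 were higher (0.0856% of genes tested) and 11 lower (0.0672%). Leaving out Pb 2 gave 35 higher (0.214%) and 24 lower (0.147%). When labels of 6 against 6 libraries are permuted, a single gene separates in either direction with a probability of 0.0022. The shares found with all 12 libraries, higher and lower together, lay below that rate. Their number alone therefore shows no difference between the groups. Among the 14 were Npas3, Arap1 and Txndc5, described below, and, picked here after their values were seen, Nr2f2, a nuclear receptor of interneuron and vascular development, with 13.9 to 21.8 CPM in Pb+Mn and 9.27 to 13.5 CPM in Pb. Among the 11 were Ppp1cc and Rbm43 and, likewise picked after their values were seen, Dlg4, which encodes the postsynaptic scaffold PSD-95, with 1280 to 1370 CPM in Pb+Mn and 1440 to 1550 CPM in Pb, and Git1, a synaptic scaffold for ARF signalling, with 698 to 985 CPM in Pb+Mn and 1000 to 1370 CPM in Pb. None of these passed the adjusted threshold in edgeR (adjusted p = 0.96 for each). Dlg4, with a log2 fold change of -0.16, also missed the unadjusted threshold (edgeR, unadjusted p = 0.18). The unadjusted p in edgeR was 0.022 for Git1 (log2 fold change -0.43) and 0.016 for Nr2f2 (0.46).

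Genes of manganese and iron transport gave 16 of 21 positive log2 fold changes (Pb+Mn over Pb), with a median of 0.07 and 0 past the adjusted threshold. Slc30a10, which exports manganese, had 12.9 to 18.1 CPM (median 15.4) in Pb+Mn and 10.7 to 21.7 CPM (median 15) in Pb daughters, and its log2 fold change was 0.06 ± 0.15 (SE). The Pb+Mn values lay inside the range of the Pb values. Slc39a14, an importer of manganese, zinc and iron, had a median of 39.5 CPM in Pb+Mn and 44 CPM in Pb (log2 fold change 0.01 ± 0.11), and Slc11a2, the divalent metal carrier DMT1, a median of 30.1 CPM in Pb+Mn and 30.7 CPM in Pb (0.00 ± 0.09). Slc39a8, the other manganese importer of its family, had a median of 4.92 CPM in Pb+Mn and 4.17 CPM in Pb (0.19 ± 0.15). For all 4 carriers the groups overlapped.

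Hfe (ENSMUSG00000006611.16, chromosome 13), whose product helps cells to sense iron through the transferrin receptor and hepcidin, was the member of that list with the smallest p. Its levels were 4.93 to 9.64 CPM (median 7.24) in Pb+Mn and 1.96 to 8.36 CPM (median 2.99) in Pb daughters, for a log2 fold change of 0.93 ± 0.29 (SE; edgeR, adjusted p = 0.96). Pb 2 held the highest Pb value, 8.36 CPM, and the other 5 Pb libraries lay below all 6 Pb+Mn libraries, with 3.97 CPM as the highest. Without Pb 2 the log2 fold change was 1.31 ± 0.28 (edgeR, adjusted p = 0.38). Hfe was also the 1 gene that DESeq2 called without Pb 2 (adjusted p = 0.032), while limma voom without Pb 2 gave an adjusted p of 1. Across the 26 alternatives its log2 fold change stayed between 0.76, without Pb 3, and 1.43, without Pb 2 and Pb 4 together. The Pb daughters had the lowest mean of the 8 groups. Hfe averaged 7.15 ± 1.62 CPM in Pb+Mn, 3.77 ± 2.35 CPM in Pb, 5.89 ± 2.29 CPM in Mn and 5.8 ± 1.51 CPM in control daughters, and between 6.53 and 7.16 CPM in the 4 groups of sons (SD, n = 6 each). The test of whether the manganese difference depended on lead gave 0.90 ± 0.40 for Hfe (edgeR, adjusted p = 0.99).

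Metallothioneins, the small proteins that buffer zinc and copper, had lower medians in Pb+Mn: 179 CPM against 252 CPM in Pb for Mt1 (log2 fold change -0.40 ± 0.22), 20.6 CPM against 30 CPM in Pb for Mt2 (-0.28 ± 0.29, and -0.59 without Pb+Mn 3) and 267 CPM against 344 CPM in Pb for Mt3 (-0.50 ± 0.22). The groups overlapped for each. The Mt3 value rested in part on Pb 2, which had 731 CPM, and was -0.24 without it. Slc30a1, the plasma membrane zinc exporter, had 35.8 to 44.8 CPM in Pb+Mn and 22.8 to 41.7 CPM in Pb (0.29 ± 0.13), and 0.19 without Pb 2. Over the list of metallothioneins and zinc carriers, 11 of 18 genes were positive, with a median of 0.03. Alad, the enzyme of haem synthesis that lead inhibits, had medians of 25.9 CPM in Pb+Mn and 27.1 CPM in Pb (-0.09 ± 0.18). The 12 genes of haem synthesis and breakdown had a median of -0.07, and 0.01 without Pb 2.

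Enzymes that carry manganese gave a median of -0.02 over 11 genes, 5 of them positive. Sod2, the mitochondrial superoxide dismutase, had 159 to 191 CPM (median 174) in Pb+Mn and 168 to 213 CPM (median 197) in Pb, a log2 fold change of -0.16 ± 0.09 that was -0.20 without Pb 2. Glul, the glutamine synthetase of astrocytes, had 1460 to 2240 CPM (median 1840) in Pb+Mn and 1960 to 2460 CPM (median 2220) in Pb (-0.23 ± 0.14). All 6 Pb+Mn libraries lay below the Pb mean for Sod2, and the groups overlapped for both genes.

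Cd44 (ENSMUSG00000005087.18, chromosome 2) had the smallest p of all named genes. It had 1.99 to 5.18 CPM (median 3.34) in Pb+Mn and 1.65 to 2.87 CPM (median 1.75) in Pb daughters, a log2 fold change of 0.76 ± 0.20 (edgeR, adjusted p = 0.96). Pb+Mn 1 and Pb+Mn 5 were the highest, at 5.18 and 4.38 CPM, and Pb+Mn 2 and Pb+Mn 6, at 2.21 and 1.99 CPM, lay among the Pb libraries. With any 1 library left out, the value stayed between 0.61 and 0.88, and it was 0.83 without Pb 2. Cd44 averaged 3.41 ± 1.24 CPM in Pb+Mn, 2.03 ± 0.518 CPM in Pb, 2.65 ± 0.58 CPM in Mn and 3.34 ± 0.804 CPM in control daughters (SD, n = 6 each). The Pb daughters thus had the lowest mean, and the Pb+Mn mean lay near that of the controls. Lead alone over control gave -0.72 ± 0.20. Manganese without lead gave -0.33 ± 0.20, and the difference between the manganese differences with and without lead was 1.09 ± 0.28 (edgeR, adjusted p = 0.99).

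Among the other named genes, Npas3, Arap1 and Txndc5 were higher in every Pb+Mn library than in any Pb library. Npas3 (ENSMUSG00000021010.10, chromosome 12), a neuronal transcription factor gene of the bHLH-PAS family linked in mice to hippocampal neurogenesis, had 13 to 17.3 CPM (median 15.2) in Pb+Mn and 8.06 to 12.4 CPM (median 11.7) in Pb (log2 fold change 0.44 ± 0.13). Arap1, which regulates ARF GTPases, had 19.9 to 23.9 CPM in Pb+Mn and 16 to 18.5 CPM in Pb (0.30 ± 0.09). Txndc5, a disulphide isomerase of the endoplasmic reticulum, had 53.3 to 64.4 CPM in Pb+Mn and 41.5 to 52.9 CPM in Pb (0.29 ± 0.09). Npas3 was lowest in Pb 2, at 8.06 CPM. Without Pb 2 the log2 fold changes were 0.36 for Npas3, 0.27 for Arap1 and 0.25 for Txndc5, and the groups still did not overlap. In control daughters Npas3 averaged 12.5 ± 1.68 CPM, Arap1 18.5 ± 1.58 CPM and Txndc5 56.2 ± 6.29 CPM (SD, n = 6 each), each between the means of the Pb+Mn and the Pb daughters.

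**Figure D3:**
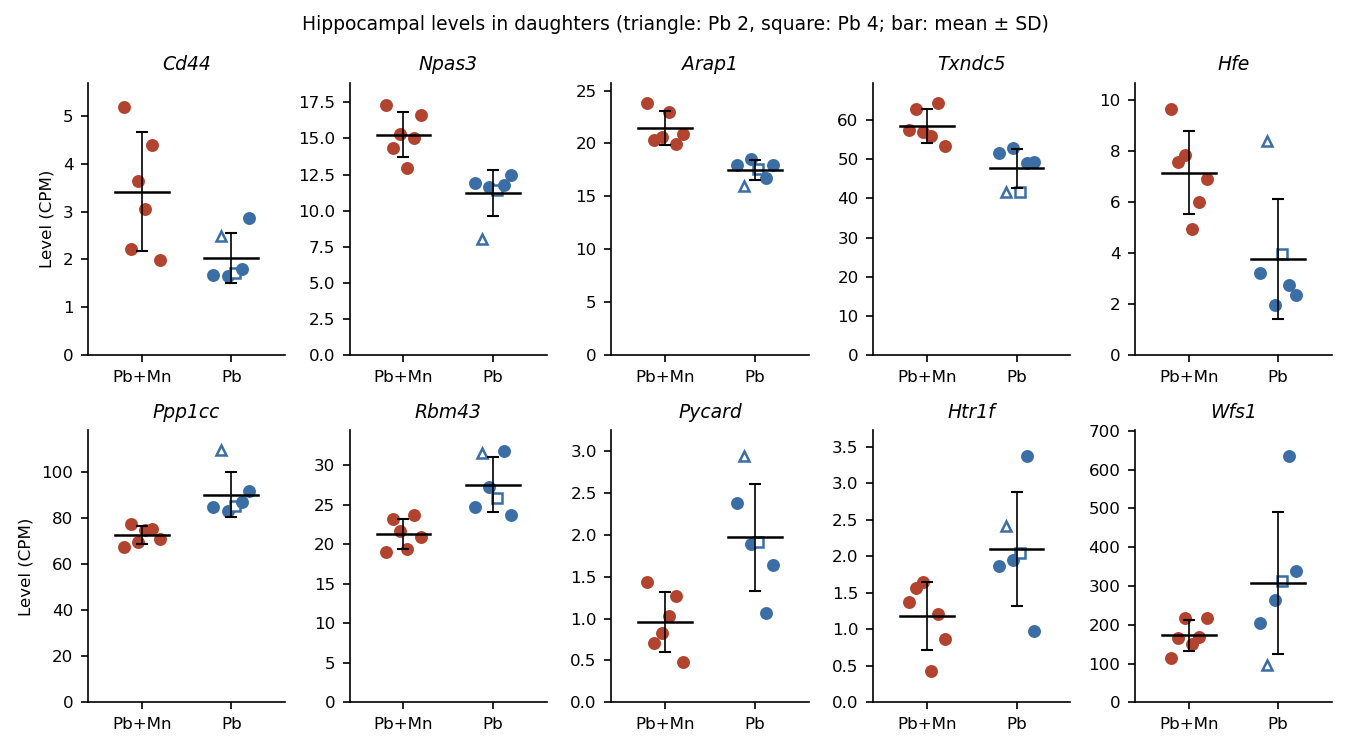
Levels (CPM) of 10 genes in each library, Pb+Mn left of Pb, with the mean and SD as bars (n = 6 each) and Pb 2 and Pb 4 drawn as a triangle and a square. Npas3, Arap1 and Txndc5 are higher, and Ppp1cc and Rbm43 lower, in all 6 Pb+Mn libraries than in all 6 Pb libraries. For Hfe the Pb 2 value of 8.36 CPM lies among the Pb+Mn values.

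The other genes of smallest p that were higher in Pb+Mn were Ldlrad3, a receptor gene of the LDL receptor family (median 16 CPM in Pb+Mn and 12.5 CPM in Pb, log2 fold change 0.43 ± 0.12), Col23a1, a transmembrane collagen gene (7.91 CPM in Pb+Mn and 5.12 CPM in Pb, 0.52 ± 0.16) and Heatr5a (15.1 CPM in Pb+Mn and 12.3 CPM in Pb, 0.38 ± 0.12). Their groups overlapped. The rule also named the interferon-inducible genes Gbp4, Gbp2 and Ifih1, which are described with their pathway.

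Ppp1cc (ENSMUSG00000004455.17, chromosome 5), a catalytic subunit of protein phosphatase 1, had 67.6 to 77.4 CPM (median 73) in Pb+Mn and 83 to 109 CPM (median 86) in Pb daughters, for a log2 fold change of -0.31 ± 0.09 (edgeR, adjusted p = 0.96). Every Pb+Mn library lay below every Pb library, Pb 2 was the highest, and without it the value was -0.25 and the groups did not overlap. Rbm43, an RNA-binding protein gene, had 19 to 23.6 CPM in Pb+Mn and 23.7 to 31.8 CPM in Pb (-0.37 ± 0.12), and -0.33 without Pb 2, again with no overlap. Pycard, the adaptor that links inflammasome sensors to caspase-1, had 0.476 to 1.44 CPM (median 0.93) in Pb+Mn and 1.07 to 2.94 CPM (median 1.9) in Pb (-1.01 ± 0.31). Htr1f, a serotonin receptor that inhibits adenylyl cyclase, had 0.426 to 1.65 CPM (median 1.3) in Pb+Mn and 0.983 to 3.37 CPM (median 2) in Pb (-0.83 ± 0.27). For both the groups overlapped, and the values without Pb 2 were -0.87 and -0.80.

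Ipp, Isoc2b, Catsperz, Fam151b, Mrpl48, Gorab and Spink8 were also named as lower, with log2 fold changes from -1.03 to -0.33. For all of these but Catsperz, Pb 2 held the highest value. Mrpl48, a mitochondrial ribosome gene, had 38.7 to 47 CPM in Pb+Mn and 43.5 to 96.2 CPM in Pb, where 96.2 CPM was Pb 2, and its log2 fold change was -0.37 with and -0.15 without that library. Spink8, a protease inhibitor gene enriched in hippocampal pyramidal cells of mice, had 13.6 to 22.1 CPM in Pb+Mn and 21.4 to 77.5 CPM in Pb, and its value was -1.03 with and -0.65 without Pb 2. Without Pb 2, Isoc2b gave -0.31, Fam151b -0.36 and Gorab -0.28. Ipp gave -0.26 and Catsperz -0.69 without it.

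Interferons act on cells through receptors that activate transcription factors, and these bind the interferon-stimulated response element in the promoters of their targets. Those targets include antiviral proteins, antigen-presenting proteins and large GTPases that attack vacuoles. Of 25 genes of interferon response and antigen presentation tested, 24 were higher in Pb+Mn and 0 passed the adjusted threshold. The median log2 fold change was 0.31 with and without Pb 2, against -0.004 over all genes. Oasl2 and Psmb8 reached an unadjusted p of 0.05, both higher, where 1.87% of all genes did so. Oasl2, an antiviral gene of the oligoadenylate synthetase family, had 1.93 to 4.72 CPM (median 3.26) in Pb+Mn and 1.13 to 2.39 CPM (median 2.05) in Pb (0.75 ± 0.30). Psmb8, a subunit of the immunoproteasome, had 2.13 to 3.73 CPM in Pb+Mn and 1.16 to 3.09 CPM in Pb (0.43 ± 0.20). The lowest was the library labelled Pb 4, and Psmb8 gave 0.28 without it and 0.57 without Pb 2. The mean log2 CPM of the list was 1.94 to 2.37 in Pb+Mn and 1.55 to 2.12 in Pb daughters, so the groups overlapped. Pb+Mn 6 was the highest Pb+Mn library for 11 of the 25 genes and Pb+Mn 1 for 7. Pb+Mn 1, the highest library on this list at 2.37, was also the highest on the choroid plexus list at 5.496 and the meninges list at 3.445, and Pb 6, the highest Pb library here at 2.12, was the highest Pb library on the meninges list at 3.31. The part of these tissues in the interferon values was not tested. With any 1 library left out, 21 to 24 of the 25 genes were positive and the median lay between 0.22 and 0.38.

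Ifih1, which encodes the RNA sensor MDA5, is not on that list and was named by its p. It had 2.07 to 3.97 CPM (median 2.99) in Pb+Mn and 1.26 to 2.29 CPM (median 1.69) in Pb, with a log2 fold change of 0.76 ± 0.23 (edgeR, adjusted p = 0.96) and 0.70 without Pb 2. Ifih1 averaged 2.5 ± 0.537 CPM in Mn and 3.16 ± 1.71 CPM in control daughters (SD, n = 6 each), where control 5 held 6.57 CPM and the other controls 1.97 to 2.99 CPM. The Pb daughters had the lowest mean of the 4 groups.

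Gbp2 and Gbp4, guanylate-binding proteins of the interferon-inducible GTPase family, drew attention to the rest of that family, so the 14 tested members were read out after their values were seen and carry no test as a group. The promoters of the family are known for interferon response elements, and 3 of them are printed here from RefSeq (build GRCm38.p6, 250 bases before to 50 after the start, 5′ to 3′ on the gene's strand), with the core of that element, GAAANNGAAA read on either strand, in capitals.
Gbp2, chr3:142620413-142620712 (+): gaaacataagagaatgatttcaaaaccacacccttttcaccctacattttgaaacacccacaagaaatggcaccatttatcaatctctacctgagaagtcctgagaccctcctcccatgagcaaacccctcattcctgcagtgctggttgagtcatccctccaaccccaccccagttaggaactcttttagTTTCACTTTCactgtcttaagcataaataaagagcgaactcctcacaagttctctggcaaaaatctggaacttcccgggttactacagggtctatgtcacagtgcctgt
Gbp7, chr3:142530086-142530385 (+): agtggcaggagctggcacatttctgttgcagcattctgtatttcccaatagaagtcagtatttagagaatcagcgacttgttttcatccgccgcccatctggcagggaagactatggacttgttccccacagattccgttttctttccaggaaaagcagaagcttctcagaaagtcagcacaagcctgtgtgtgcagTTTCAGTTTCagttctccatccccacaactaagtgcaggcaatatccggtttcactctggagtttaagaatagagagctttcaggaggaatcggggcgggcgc
Irgm2, chr11:58214727-58215026 (+): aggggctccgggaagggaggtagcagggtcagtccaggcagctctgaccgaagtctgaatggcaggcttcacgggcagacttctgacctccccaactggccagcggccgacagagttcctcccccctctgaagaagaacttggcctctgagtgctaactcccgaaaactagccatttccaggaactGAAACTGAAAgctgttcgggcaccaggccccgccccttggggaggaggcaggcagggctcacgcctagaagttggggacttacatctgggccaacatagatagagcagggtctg
The core stood in the promoters of 9 of the 10 family members scanned, against 3.99% of 27025 genes, and the gamma-activated site TTCNNNGAA in 6 of the 10, against 9.55% of genes. The scan of the family left out a chromosome that the count over all genes kept, so the 10 need not be every member with an entry. Gbp4, Gbp9, Gbp11 and Iigp1 were not among the 10. The family was chosen as interferon-inducible, so these shares describe the family and not the libraries compared.

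Pb+Mn 6 held the highest levels of most of the family. Gbp2 (ENSMUSG00000028270.13) had 4.68 to 13.4 CPM (median 5.39) in Pb+Mn and 2.81 to 5 CPM (median 3.47) in Pb daughters, a log2 fold change of 0.91 ± 0.27 (edgeR, adjusted p = 0.96). Pb+Mn 6 held the 13.4 CPM, the other 5 Pb+Mn libraries lay between 4.68 and 6.21 CPM, and without Pb+Mn 6 the log2 fold change was 0.60. Gbp4 had 20.3 CPM in Pb+Mn 6 and at most 1.43 CPM in the other Pb+Mn libraries, against 0.244 to 1.81 CPM in Pb, so its log2 fold change of 2.60 ± 0.76 became 0.65 without Pb+Mn 6. Irgm2, an immunity-related GTPase gene, had 1.93 to 9.05 CPM in Pb+Mn, with Pb+Mn 6 the highest, and 1.36 to 2.44 CPM in Pb (1.07 ± 0.36, and 0.57 without Pb+Mn 6). Gbp7 had 3.56 to 7.22 CPM in Pb+Mn and 2.53 to 3.83 CPM in Pb (0.70 ± 0.23). Pb+Mn 6 was the highest Pb+Mn library for 13 of the 14 members. Reads of near-identical copies such as Tgtp1 and Tgtp2 may have been shared between them.

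Averaged over the 14 members, log2 CPM was 0.80, 0.83, 0.98, 1.11, 1.11 and 2.58 in the 6 Pb+Mn libraries, with 2.58 in Pb+Mn 6, and 0.27 to 0.52 in the 6 Pb libraries. The groups did not overlap on this average, which holds no test because its members were picked by their values. The plot by exposure shows that control daughters spanned 0.36 to 2.22 and Mn daughters 0.38 to 1.18, so both other groups reached into the range of Pb+Mn and into that of Pb. The list of microglia, the resident immune cells, averaged 4.84 ± 0.11 in Pb+Mn and 4.82 ± 0.14 log2 CPM in Pb (SD, n = 6 each), with 9 of 17 genes positive. Pb+Mn 6 was the highest Pb+Mn library on this list too, at 5.043, and Pb 1 the highest Pb library, at 5.085. In bulk tissue, fewer cells of a type and less RNA per cell cannot be told apart. The part of single animals in the interferon values was not tested beyond leaving each out.

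**Figure D4:**
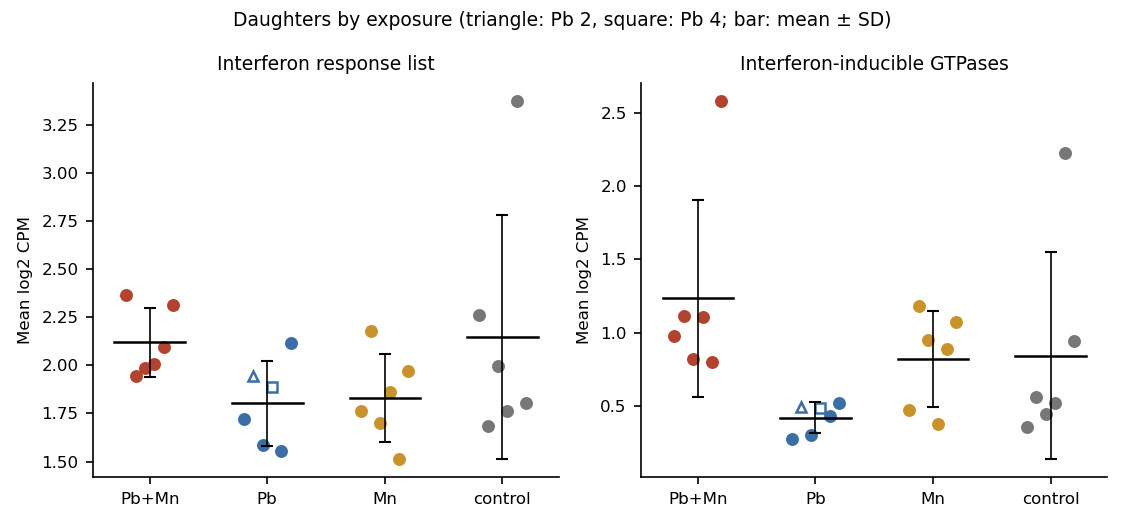
Mean log2 CPM per library of the interferon response list (25 genes, left) and of the interferon-inducible GTPases (14 genes, right) in Pb+Mn, Pb, Mn and control daughters, with the mean and SD as bars (n = 6 each). On the right, Pb+Mn 6 stands at 2.58, the other Pb+Mn libraries at 0.80 to 1.11 and the Pb libraries at 0.27 to 0.52.

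Values for genes of the cytosolic ribosome and of the respiratory chain depended on Pb 2. All 35 ribosomal protein genes tested had negative log2 fold changes with all 12 libraries (0 positive, median log2 fold change -0.33, 3 at an unadjusted p under 0.05, where 1.83% of all genes were lower at that threshold), and without Pb 2 the median was 0.05 with 29 of 35 positive. Nuclear genes of the respiratory chain gave a median of -0.33 with 3 of 33 positive, and -0.02 with 14 positive without Pb 2. Rps27, for example, had 164 to 196 CPM in Pb+Mn and 130 to 702 CPM in Pb, where 702 CPM was Pb 2 and the next highest value was 238 CPM. Its log2 fold change was -0.57 ± 0.28 with and 0.02 without Pb 2. Atp5e, a subunit of ATP synthase, gave -0.76 with and 0.12 without that library. With the length trend of each library as a covariate, the 2 medians were -0.01 and -0.04. The 13 proteins that mitochondria encode themselves had a median of 0.02.

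Transmitter systems that lead and manganese are known to touch gave the following medians, in part dependent on Pb 2. Glutamate receptor genes had a median log2 fold change of 0.03 (13 of 22 positive), and 0.05 without Pb 2. GABA-A receptor genes gave -0.05 (4 of 12 positive) with and -0.09 without Pb 2, and voltage-gated calcium channel genes -0.04 (6 of 15) with and -0.10 (2 of 15) without it. Genes of protein kinase C and calmodulin signalling gave -0.08 (5 of 23) with and -0.15 (5 of 23) without Pb 2. Among 29 monoamine and acetylcholine receptor genes, 16 were positive with a median of 0.01, and 11 with a median of -0.08 without Pb 2. Chrm3, a muscarinic acetylcholine receptor of pyramidal cells, had 53.4 to 70.3 CPM (median 63.7) in Pb+Mn and 41.1 to 142 CPM (median 88.8) in Pb (-0.44 ± 0.19). Pb 2 was the lowest Pb library for it, and Pb 5 the highest. Without Pb 2 the value was -0.59, and without Pb 5 it was -0.24. Drd2, the D2 dopamine receptor, had 1.67 to 6.28 CPM (median 4.47) in Pb+Mn and 1.92 to 3.77 CPM (median 2.29) in Pb (0.72 ± 0.33), and Pb+Mn 6 held the lowest value of all 12 libraries.

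The study's title concerns social processing, and 2 receptors of the peptides that act on it were read out. Their groups overlapped. Oxtr, the oxytocin receptor, had 6.6 to 8.46 CPM in Pb+Mn and 3.62 to 8.33 CPM in Pb (log2 fold change 0.21 ± 0.24, and 0.09 without Pb 2, the lowest). Avpr1b, the vasopressin receptor of hippocampal area CA2, had 0.721 to 1.02 CPM in Pb+Mn and 0.226 to 2.25 CPM in Pb (-0.57 ± 0.43), with 2 Pb libraries below and 4 above the range of Pb+Mn. Its value was -0.78 without Pb 2 and -0.35 without Pb 5.

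Immediate early genes, which report recent activity, gave 9 of 24 positive and a median of -0.04. Fos had 7.64 to 37.1 CPM in Pb+Mn and 12 to 45.2 CPM in Pb (0.01 ± 0.29), and Bdnf, a neurotrophin induced by activity, 27.9 to 56.2 CPM in Pb+Mn and 25.1 to 63.9 CPM in Pb (-0.02 ± 0.22). Jun was the member of smallest p, with 80.6 to 121 CPM in Pb+Mn and 58.5 to 107 CPM in Pb (0.34 ± 0.16). Ier3 followed with 0.43 ± 0.21. Genes induced by glucocorticoids gave 3 of 16 positive, with a median of -0.10 and -0.15 without Pb 2. Plin4, a lipid droplet protein gene, had 4 to 15.3 CPM (median 5.19) in Pb+Mn and 6.72 to 26 CPM (median 11.1) in Pb (-1.02 ± 0.43), with Pb+Mn 3 the highest of its group. Sult1a1, a sulfotransferase gene, gave -0.52 ± 0.22. Fkbp5, a widely used marker of the response, gave -0.11 ± 0.18 and Tsc22d3 -0.20 ± 0.25.

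The marker lists were read to see which cells and tissues the libraries held. The hippocampal lists were all detected: dentate granule cells averaged 5.38 ± 0.06 log2 CPM in Pb+Mn and 5.29 ± 0.29 in Pb, and CA2 and CA3 pyramidal neurons 5.15 ± 0.13 in Pb+Mn and 5.06 ± 0.21 in Pb (SD, n = 6 each). For CA1 pyramidal neurons, 10 of 11 genes had lower levels in Pb+Mn, with a median of -0.37, and -0.50 without Pb 2. Wfs1, the defining CA1 marker, had 115 to 218 CPM (median 168) in Pb+Mn and 95.4 to 635 CPM (median 289) in Pb (-0.84 ± 0.36). Its highest value, 635 CPM, was Pb 5, and its lowest Pb 2. Without Pb 5 the median of the CA1 list was -0.17 and Wfs1 gave -0.49. Astrocyte genes had a median of 0.03 (9 of 16 positive), with Aqp4 at 0.32 ± 0.14 and Gja1 at 0.18 ± 0.09, and oligodendrocyte genes a median of 0.06.

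Markers of tissues next to the hippocampus varied widely between animals. Choroid plexus and ependyma genes were higher in Pb+Mn for 20 of 21 genes, with a median log2 fold change of 1.01, and 1.05 without Pb 2. The summed level of the list was 397 to 7402 CPM in Pb+Mn and 260 to 2407 CPM in Pb. Pb+Mn 1 had the highest mean log2 CPM of the list, 5.496, and without that library the median was 0.27. Ttr, transthyretin, spanned 42.4 to 4030 CPM in Pb+Mn and 11.6 to 1900 CPM in Pb, and no gene of this list was at 0 in any library. Thalamus and habenula genes were higher for 19 of 22, with a median of 0.68, 0.61 without Pb 2 and 1.03 (22 of 22) without Pb 6, and their summed level was 552 to 1551 CPM in Pb+Mn and 587 to 1375 CPM in Pb. Shox2 and Pou4f1 were at 0 in some libraries of both groups. Meningeal and fibroblast genes were higher for 20 of 21, with a median of 0.33, 0.28 without Pb 2, 0.21 without Pb+Mn 1, and summed levels of 220 to 459 CPM in Pb+Mn and 171 to 330 CPM in Pb. Igf2, which these tissues make, had 2.5 to 12.3 CPM in Pb+Mn, with Pb+Mn 1 the highest, and 1.31 to 2.81 CPM in Pb (1.12 ± 0.54, and 0.53 without Pb+Mn 1). Pituitary and hypothalamus markers gave a median of 0.84 over 6 genes, and -0.29 without Pb+Mn 1. For none of these lists did a member pass the adjusted threshold. The part of dissection in the other results was not tested.

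**Figure D5:**
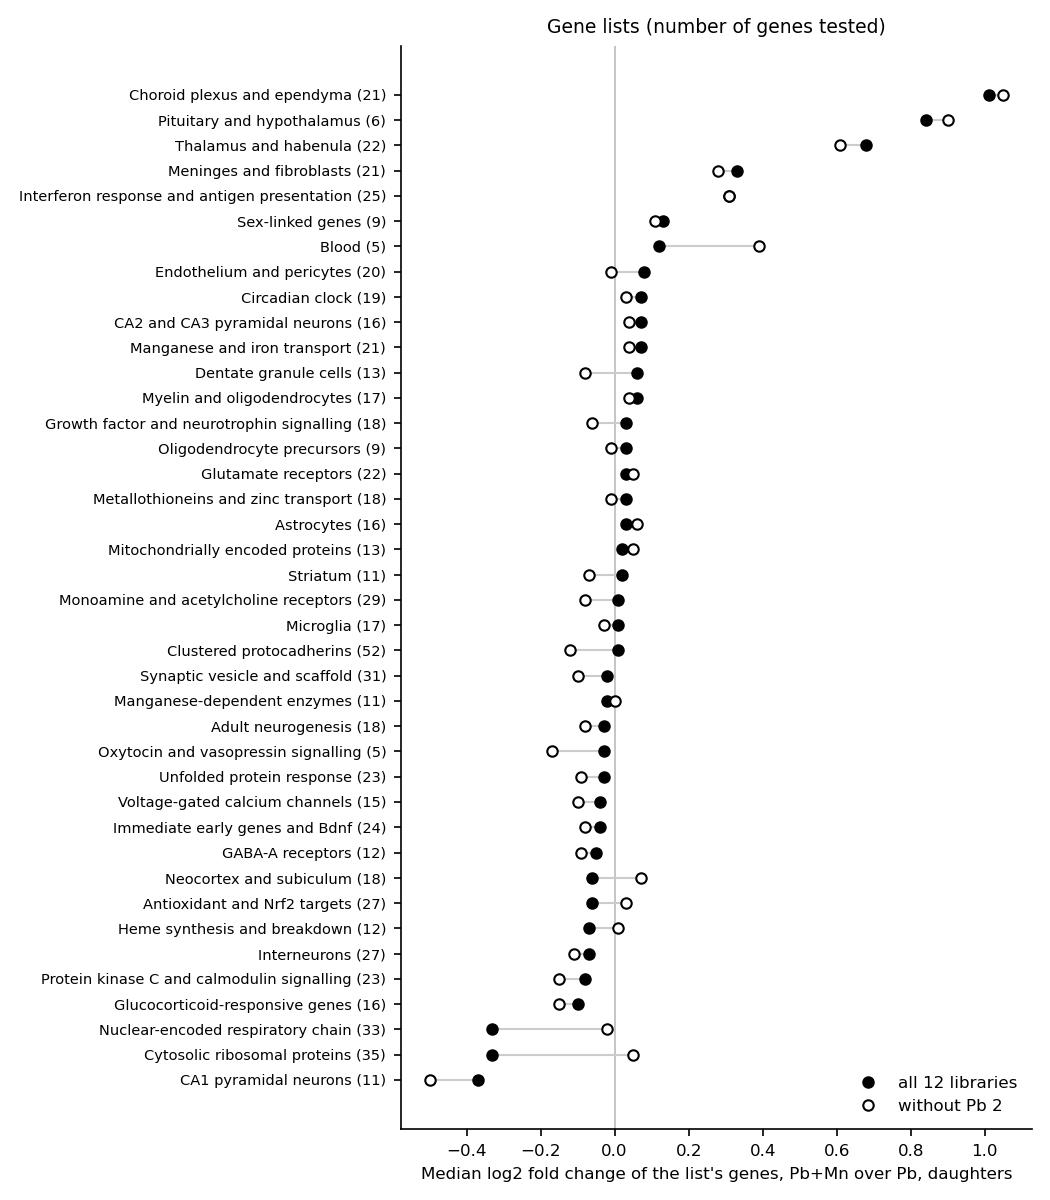
Median log2 fold change (Pb+Mn over Pb, daughters) of each of the 40 gene lists, with the number of genes tested in brackets; filled points use all 12 libraries and open points leave out Pb 2. The lists of the ribosome and the respiratory chain lie at -0.33 and move to 0.05 and -0.02 without Pb 2, whereas the interferon list stays at 0.31 and the choroid plexus list at 1.01 and 1.05.

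Whether manganese did the same without lead was tested in 1 model over all groups. The manganese difference with lead minus that without it passed the adjusted threshold for 0 genes (edgeR, smallest adjusted p 0.99), with 519 genes (3.17%) at an unadjusted p under 0.05. The genes of smallest p included Isg20, an interferon-induced exonuclease (2.65 ± 0.67), Cd44 (1.09 ± 0.28), Irf7, the interferon regulatory factor (2.28 ± 0.66) and Oasl2 (1.45 ± 0.43), each with an adjusted p of 0.99. Irf7 had 17.4 CPM in control 5, while the remaining controls spanned 0.921 to 3.84 CPM, and Oasl2 had 11.2 CPM in control 5, while they spanned 1.21 to 2.53 CPM. Without control 5, Irf7 gave 1.12 ± 0.51, Oasl2 0.64 ± 0.29, Isg20 2.50 ± 0.68 and Cd44 1.09 ± 0.28, and 314 genes were under the unadjusted threshold. Over the interferon list, the median log2 fold change was 0.31 for Pb+Mn over Pb and -0.37 for Mn over control, 2 contrasts that share no library. The -0.37 rested on control 5, whose mean log2 CPM over the list was 3.37, against 1.68 to 2.26 in the other 5 control daughters. In a fit without control 5, chosen after seeing the data, the median was -0.01 with 11 of 25 genes positive. Of the 24 named genes of smallest p, 8 had the same sign in Mn over control daughters, 7 of the 12 higher and 1 of the 12 lower, and 12 had it without control 5. Across all 16360 genes the log2 fold changes of the 2 contrasts had a Pearson r of -0.07, and 0.07 without control 5. Genes are not independent, so this r describes the libraries and has no p.

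In sons, the difference of Pb+Mn from Pb was set against that in daughters in the same model. The difference between the sexes passed for 0 genes (edgeR, smallest adjusted p 0.92), with 557 genes (3.4%) at an unadjusted p under 0.05. Without female Pb 2 the unadjusted count was 2729 of 16474 genes and the smallest adjusted p 0.23. Without female Pb 2 and male Pb 6 it was 1464 of 16406 genes. In sons alone, Pb+Mn against Pb had 4227 genes under the unadjusted threshold without female Pb 2, with 1143 past the adjusted threshold. Leaving out male Pb 6 as well gave 1983 and 0, so the count of 2729 rested in part on that male library. Of the 24 named genes, 19 had the same sign in sons, 7 of the 12 higher and 12 of the 12 lower. Across all genes the log2 fold changes of daughters and sons had a Pearson r of 0.37, which was 0.01 without female Pb 2 and -0.04 without female Pb 2 and male Pb 6, a pair picked after the data were seen. The ribosomal list had a median of -0.54 in sons and -0.33 in daughters, and 0.05 in daughters without Pb 2. No male library was left out for the -0.54. The male Pb libraries also spread widely, with 174 to 701 CPM of Rps27 (mean 331 ± 194 CPM, SD, n = 6), so the -0.54 and the 0.05 are not like for like. The interferon list had a median of -0.24 in sons. Hfe, at 0.93 in daughters, gave -0.10 ± 0.28 in sons, and the test of that difference gave 1.03 (edgeR, adjusted p = 0.92). Spink8 gave -1.24 ± 0.38 in sons and -1.03 ± 0.38 in daughters. Male Pb 6 held 113 CPM of it, against 17.2 to 44.5 CPM in the other male Pb libraries, and female Pb 2 held 77.5 CPM. Without both libraries Spink8 gave -0.60 in sons and -0.65 in daughters.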

How the data were processed

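Hippocampal RNA of 48 mice was sequenced from stranded mRNA libraries, per the labels' protocols. The authors deposited 1 table of raw read counts, whole numbers for each gene. The submitters' processing notes name featureCounts 2.0.6, STAR 2.7.10b, Trim Galore 0.6.9, limma, edgeR, R 4.4.2 and build GRCm39. Settings for strand, for overlapping genes and for reads with several matches are not given in the sources used here. Values of near-identical genes are therefore uncertain. Of 57126 identifiers, 51884 matched a symbol, and these held 99.52% of counts. Counts of each pair of libraries within the Pb+Mn and the Pb group differed beyond sampling noise, with a chi-square per degree of freedom of 9.3 to 236.4, so none was a repeat of another.

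From the counts, 1 model with a term per sex and exposure was fitted to all 48 libraries with edgeR 4.0.16 in R 4.3.3 (TMM scaling, filterByExpr, robust two-sided quasi-likelihood F test, Benjamini-Hochberg adjustment at 0.05). All p-values without another name are unadjusted p-values of this test. SE, an approximation, was taken as log2 fold change over the square root of F. CPM uses TMM-scaled totals, and log2 CPM a prior count of 2. DESeq2 1.42.0 and limma 3.58.1 were alternatives. The procedure was tested on simulated data. Total counts of the 12 libraries ranged from 11.9 to 20.8 M. The labels do not state which animals were littermates, so p-values measure the spread between animals, not litters. The labels number the animals 1 to 6 in each group.

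The members, the 40 gene lists, the rule for named genes and the tests were chosen with earlier results of these data known. The rule named the 12 genes higher and the 12 lower of smallest unadjusted p whose mean log2 CPM was 0 or more and which had a named symbol, fixed genes of metal handling, peptides, activity and manganese enzymes, and of each list up to 2 members (3 for cell type, tissue and quality lists) under an unadjusted p of 0.05. Some genes that the rule named are not reported here. Lists are described by counts and medians. Library measures were compared by two-sided exact permutation tests. Promoters are from RefSeq (GRCm38.p6), another build than the counts, and were matched by symbol. Alternatives left out libraries, changed the scaling, the filter, the test or the libraries in the fit, or added a replicate block or the length trend as a covariate.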

Additional observations from a re-analysis of the deposited data

Results flagged for a closer look

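In groups of 6, the highest or lowest library was set against the nearest of the others relative to the range of the group (Dixon's test). Of 240 groups examined, 25 passed. For a single group, chance gives about 1 in 20. The groups examined include genes picked after their values were seen, and genes that move together, so the count of 25 cannot be set against that rate.

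Pb 2 stood apart for Npas3, at 8.063 CPM against 11.43 to 12.45 CPM in the other Pb libraries. It was also the highest Pb library for Ppp1cc at 109.3 CPM, Isoc2b at 6.706 CPM, Mrpl48 at 96.15 CPM, Rps27 at 701.6 CPM and Rps21 at 893.0 CPM. By mean log2 CPM of a list, Pb 2 was high for cytosolic ribosomal proteins at 9.2 and the nuclear-encoded respiratory chain at 8.0, and low for monoamine and acetylcholine receptors at 2.82 and for protein kinase C and calmodulin signalling at 7.83.

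The library labelled Pb 4 stood apart for Xist at 0.06842 CPM, against 35.11 to 495.3 CPM in the other Pb libraries, for Eif2s3x at 35.17 CPM and for the list of sex-linked genes at a mean log2 CPM of 1.05.

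Pb+Mn 6 stood apart for interferon-inducible GTPases, with 20.32 CPM of Gbp4, 13.42 CPM of Gbp2, 6.431 CPM of Gbp5, 6.669 CPM of Gbp9 and 9.051 CPM of Irgm2. It was also the highest for the CA1 pyramidal neuron list, at 5.4 against 4.54 to 4.81 in the other Pb+Mn libraries. Pb+Mn 3 had the highest Mt1 at 321.4 CPM, Plin4 at 15.27 CPM and Cox7c at 122.2 CPM, and the lowest Fos at 7.635 CPM. Pb+Mn 1 had the highest Igf2 at 12.26 CPM and the highest glutamate receptor list at 6.36. No cause of these values was tested.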

How the results depend on the processing

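Adding manganese to lead passed the adjusted threshold for 0 genes in every one of the 26 alternatives but 1, DESeq2 without Pb 2, which called 1 gene, Hfe. At an unadjusted p under 0.05, Pb+Mn against Pb gave 606 genes, 400 to 1107 with 1 library left out, 935 with limma voom and library weights and 1600 with no filter on low counts. The difference between daughters and sons gave 557 genes, 307 to 2729 with 1 library left out, 2943 with limma voom and library weights, 2872 and 2671 with DESeq2 and limma voom without Pb 2, 1549 with no filter, 2544 without Pb 2 and Pb 4, and 1464 without female Pb 2 and male Pb 6. The difference between manganese with and without lead gave 519, 422 to 710 with 1 library left out, 1087 with library weights, 1465 with no filter and 314 without female control 5. Genes whose groups did not overlap numbered 25, and 36 to 67 with 1 library left out, where fewer samples make separation easier. For the other moves the cause was not tested. With the replicate block, 0 genes passed and 542 were under the unadjusted threshold. Samples of the same number correlated between -0.286 and 0.183 in their deviations from the group means, and 1 of 6 numbers matched best with itself. The labels do not state what the numbers mean, and these correlations cannot settle whether they pair animals. Of 78 named genes, 65 kept their sign in all 26 alternatives. The alternatives without 2 libraries and the 1 without female control 5 were chosen after seeing the data. No alternative varied depth, which was 11.9 to 20.8 M counts, and the median SE of 0.16 includes the spread between animals.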
